A study of Mus musculus with 9 samples.

Results

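The 8 genes described here encode intermediate and light chains of the axonemal dyneins and were taken as a fixed list, matched to the count table by Ensembl mouse gene ID, which gave 8 of its 23074 genes. They are Dnaic1 (also Dnai1), Dnaic2 (Dnai2), Wdr63 (Dnai3), Wdr78 (Dnai4), Dnali1, Dnal1, Dnal4 and Dynlrb2. RNA was sequenced from decapsulated testis of 5 wild type and 4 Rfx2-/- mice at postnatal days 29 to 30 (P30), with 1 library per mouse, so the spread between libraries is a spread between animals. All mice of both genotypes were of a mixed C57BL/6, 129/Sv and FVB/N background. The Rfx2-/- mice carried a null allele of Rfx2 from which Cre recombinase, expressed in all tissues from an ACTB-cre transgene, had removed the exon that encodes most of the DNA binding domain. By the study's methods the mixed background line kept the neomycin cassette of the targeting vector. The comparison asked how each dynein subunit gene was expressed without RFX2.

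Axonemal dyneins are the motors that bend motile cilia and the sperm flagellum. Outer arms set much of the beat frequency and inner arms shape the waveform. Heavy chains carry the motor activity, intermediate chains with WD repeats sit at the base of the arm and hold its subunits together, and light chains bind either to the intermediate chains or to the motor itself. The RFX transcription factors, RFX2 among them, bind a palindromic DNA element called the X-box and control genes of cilia, and in the testis RFX2 is expressed in spermatocytes and spermatids, the cells that build the flagellum.

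Rfx2 itself was measured in CPM, the count of a gene per 1000000 reads of its library after scaling by the TMM method. Wild type testis had 549 ± 54.4 CPM (SD, n = 5) and Rfx2-/- testis 146 ± 59.7 CPM (n = 4), and the log2 fold change was -1.91 ± 0.28 (SE). Reads over the exons left in the deleted gene are still counted. Total counts were 13574764 to 15193330 reads in 8 libraries and 28800855 reads in Rfx2-/- replicate 1. Rfx2-/- replicate 2 stood apart from the other knockout libraries. Its genes with under 1 kb of exons were higher than in the other 3, with a median log2 difference of 0.78, and those with over 8 kb were lower, with a median of -0.93. It also held 224.5 CPM of Crisp1, a gene of the epididymis, against at most 3.12 CPM in any other library. Values without this library are given beside the results whose call, p limit or placing it alters, except for the order of levels per exon length.

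The X-box was searched in the 300 bases around the RefSeq start of each gene (250 before and 50 after, build GRCm38.p6), as the letters GTTNC, then 2 to 5 of any base, then GNAAC, an arrangement that reads the same on both strands. The spacing was set after the windows had been read. Windows were found for 7 of the 8 genes, all except Wdr78, and those of Dnaic1, Dnaic2 and Dynlrb2 held a match. The same letters stood in 2.69% of all 32851 windows, those of other genes included. These 3 windows are shown because they hold a match and their genes had different values in the knockout, as given below. The matched letters are in capitals. The Dnaic1 window lies at chr4:41569544-41569843 on the + strand, that of Dnaic2 at chr11:114727169-114727468 on the + strand and that of Dynlrb2 at chr8:116504765-116505064 on the + strand.
Dnaic2: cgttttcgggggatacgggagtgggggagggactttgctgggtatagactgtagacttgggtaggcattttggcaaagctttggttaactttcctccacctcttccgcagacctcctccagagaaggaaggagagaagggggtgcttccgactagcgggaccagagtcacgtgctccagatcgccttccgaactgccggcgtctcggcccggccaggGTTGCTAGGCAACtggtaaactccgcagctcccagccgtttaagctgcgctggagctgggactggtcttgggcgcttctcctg
Dnaic1: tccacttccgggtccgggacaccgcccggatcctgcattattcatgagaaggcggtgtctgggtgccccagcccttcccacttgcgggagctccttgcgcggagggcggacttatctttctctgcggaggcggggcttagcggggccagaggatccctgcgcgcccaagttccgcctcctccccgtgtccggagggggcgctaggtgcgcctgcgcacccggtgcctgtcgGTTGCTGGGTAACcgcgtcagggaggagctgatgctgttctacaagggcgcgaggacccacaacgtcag
Dynlrb2: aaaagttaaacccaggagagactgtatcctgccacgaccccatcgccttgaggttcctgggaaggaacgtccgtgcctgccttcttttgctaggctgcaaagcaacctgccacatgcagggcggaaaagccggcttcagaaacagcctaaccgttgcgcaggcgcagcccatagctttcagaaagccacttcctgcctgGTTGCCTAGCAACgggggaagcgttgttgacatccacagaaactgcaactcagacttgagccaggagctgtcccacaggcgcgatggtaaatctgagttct
The match began 33 bases before the RefSeq start of Dnaic2, 19 bases before that of Dnaic1 and 51 bases before that of Dynlrb2. It was 13 bases long in each. The gene starts printed below are those of GENCODE and differ. The Dnaic1 match begins on its GENCODE start, 41569775. That of Dynlrb2, 116504964 to 116504976, spans its GENCODE start, and that of Dnaic2, 114727386 to 114727398, ends before its GENCODE start. A match describes the letters only and says nothing of binding.

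All 8 genes passed the filter on low counts and were tested. In Rfx2-/- testis 3 of them, Dnaic2, Wdr78 and Dnali1, were called lower and 0 were called higher, where a call required an adjusted p at or under 0.01 (edgeR quasi-likelihood test, Benjamini-Hochberg over 15613 genes) and a change over 2-fold. The background of this rule was 3.68% of all genes for lower calls and 0.826% for higher calls. Dnal4 and Dynlrb2 fell by less than 2-fold and passed the p limit, which made 5 of 8 genes lower at this limit with any fold, against 4.49% of all genes. At an adjusted p of 0.05 with any fold the lower genes were again 5 of 8 and the higher ones 0, beside 7.31% and 3.48% of all genes. The wild type and Rfx2-/- libraries did not overlap for the same 5 genes, with Rfx2-/- below wild type, whereas 9.7% of all genes separated in this direction. Dnaic1, Wdr63 and Dnal1 did not pass the test. The median log2 fold change of the 8 genes was -0.82, and that of all genes tested was 0.03. In whole testis fewer cells of a type and less RNA per cell cannot be told apart.

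**Figure D1:**
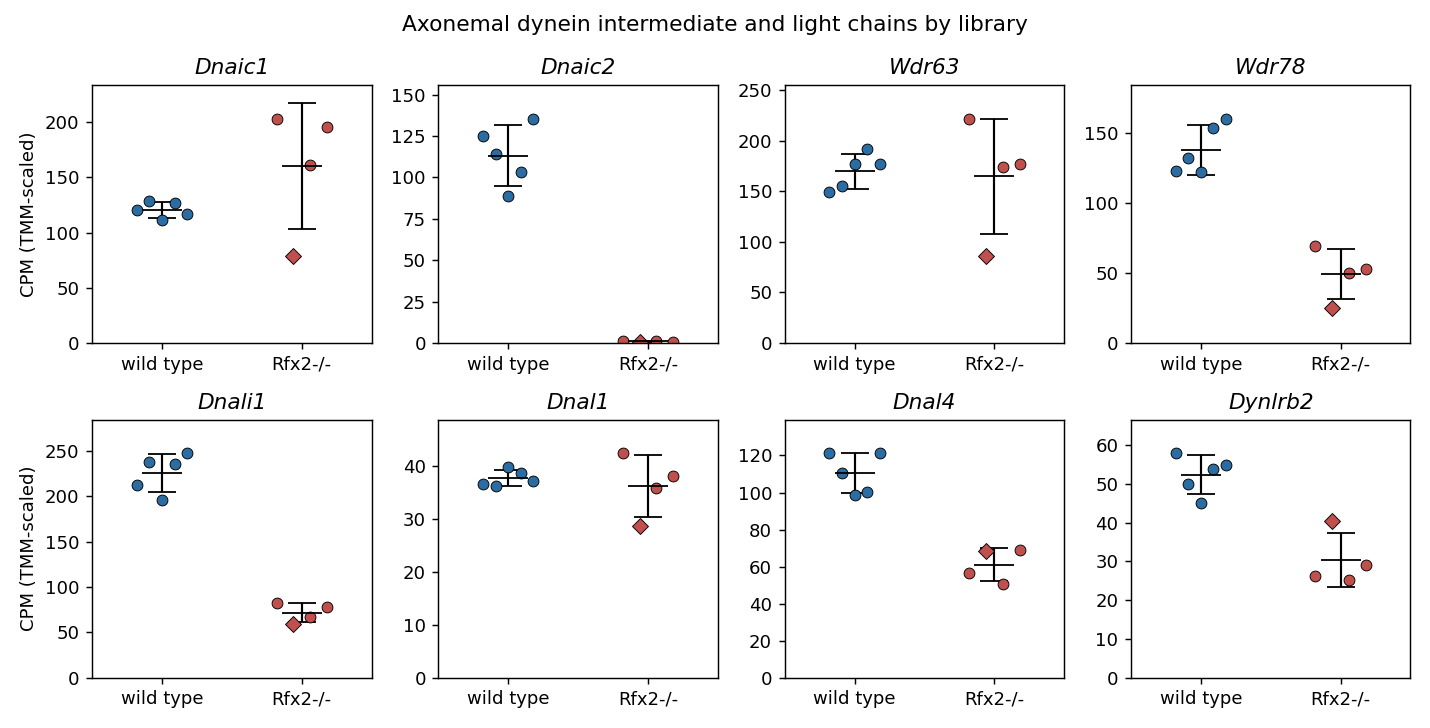
TMM-scaled CPM of each of the 8 genes in every library, on axes that start at 0, with wild type in blue (n = 5), Rfx2-/- in red (n = 4), Rfx2-/- replicate 2 as a diamond, and the mean ± SD in black. The groups are apart for Dnaic2, Wdr78, Dnali1, Dnal4 and Dynlrb2, and the Rfx2-/- libraries of Dnaic1 and Wdr63 reach from below to above the wild type ones.

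Dnaic1 and Dnaic2 encode the intermediate chains of the outer arm, which form a heterodimer at its base. Dnaic2 (ENSMUSG00000034706, chromosome 11, 114727408 to 114757889, + strand, GRCm38) was measured at 125, 114, 88.6, 103 and 135 CPM in wild type replicates 1 to 5. In Rfx2-/- replicates 1 to 4 it was at 1.23, 0.735, 1.36 and 0.85 CPM. Every knockout library was near 1 CPM, 0.922% of the wild type mean, and these values rested on 11 to 37 reads per library, above the floor of 3 reads that a count of 0 allows. The log2 fold change was -6.73 ± 0.24 (SE), 106-fold lower with a 95% interval of 73.9 to 152 (edgeR adjusted p = 5.28e-09). It was the largest fitted change among the 8 genes and the 53 other dynein genes tested, and its call held in every alternative, with log2 fold changes between -6.81 and -6.59.

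Its partner Dnaic1 (ENSMUSG00000061322, chromosome 4, 41569775 to 41638158, + strand) was at 120, 129, 111, 127 and 116 CPM in wild type. In the Rfx2-/- libraries it was at 203, 78.9, 162 and 196 CPM. Thus 3 knockout libraries lay above all wild type libraries and replicate 2 lay below all of them. Its log2 fold change of 0.41 ± 0.23 did not pass the test (edgeR adjusted p = 0.266, 95% interval -0.09 to 0.91). Without Rfx2-/- replicate 2 it was 0.63 with an edgeR adjusted p of 0.0011, still under 2-fold. The p limit was thus passed without a library that stood apart in many genes, and not with it.

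The log2 ratio of Dnaic1 to Dnaic2 counts, which is not scaled by length, was 0.11 ± 0.24 (SD, n = 5) in wild type. In Rfx2-/- the ratio was 7.17 ± 0.5 (n = 4), a difference of 7.07. The wild type libraries spanned -0.22 to 0.33 and the Rfx2-/- libraries 6.68 to 7.8, replicate 2 included. A two-sided exact permutation test over the genotype labels gave p = 0.0159, the smallest that 5 against 4 libraries allow, and 0.0159 after adjustment over the 4 pairs of genes compared. This separation was fixed beforehand, since Dnaic2 fell far more than Dnaic1 varied between libraries. The p-value therefore adds no support of its own. By their single values the 2 genes differed in their change. The part of the X-box letters, which stand in the windows of both, was not tested.

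Wdr63 and Wdr78 encode the intermediate chains of inner arm f (I1 in the green alga Chlamydomonas), the inner arm with 2 heavy chains. Wdr78 (ENSMUSG00000035126, chromosome 4, 103038065 to 103114555, - strand) was at 123, 132, 122, 154 and 161 CPM in wild type. In Rfx2-/- it was at 69.1, 25.3, 50.1 and 52.8 CPM. All knockout libraries were below all wild type ones, at 35.6% of the wild type mean. Wdr78 fell by 1.49 ± 0.24 on the log2 scale (edgeR adjusted p = 0.0016), 2.8-fold lower with a 95% interval of 1.94 to 4.04. Tested against the 2-fold limit itself it was not past the limit (edgeR glmTreat adjusted p = 0.264). Of its merged exons, 4325 bp in all, 130 bp overlap exons of Mier1 on the other strand, and reads over exons of different genes were left out of the counts.

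Wdr63 (ENSMUSG00000043020, chromosome 3, 146040526 to 146108130, - strand) was at 150, 155, 177, 191 and 177 CPM in wild type. In Rfx2-/- it was at 222, 86.3, 174 and 177 CPM. As for Dnaic1, replicate 2 was the lowest of all libraries and replicate 1 the highest, but replicates 3 and 4 lay within the wild type range. The log2 fold change was -0.05 ± 0.22 (edgeR adjusted p = 0.915, 95% interval -0.54 to 0.45), and it was 0.17 without replicate 2. The log2 ratio of Wdr63 to Wdr78 rose from 0.3 ± 0.15 in wild type to 1.75 ± 0.05 in Rfx2-/-, a difference of 1.45. The Rfx2-/- ratios, 1.68 to 1.8, were tight although the levels of both genes were lowest in replicate 2, and lay above the wild type ratios of 0.14 to 0.53 (two-sided exact permutation p = 0.0159, adjusted p = 0.0159).

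Dnali1 encodes the light intermediate chain of the single-headed inner arms, related to p28 of Chlamydomonas. Dnali1 (ENSMUSG00000042707, chromosome 4, 125055338 to 125065703, - strand) was at 212, 238, 196, 236 and 247 CPM in wild type and at 82.3, 59.2, 66.5 and 77.9 CPM in Rfx2-/-. All 4 knockout libraries were at less than any wild type library, and their mean was 31.6% of the wild type mean. Dnali1 fell by 1.66 ± 0.15 on the log2 scale (edgeR adjusted p = 1.20e-05), 3.16-fold lower with a 95% interval of 2.52 to 3.96, and the test against the 2-fold limit was passed (edgeR glmTreat adjusted p = 0.00348). Of the 8 genes Dnali1 and Dnaic2 were the only ones to pass that test. Its exons overlap those of Gnl2 on the other strand over 43 bp.

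Dnal1 encodes the leucine-rich repeat light chain that binds the motor domain of an outer arm heavy chain. Dnal1 (ENSMUSG00000042523, chromosome 12, 84114366 to 84147498, + strand) was at 36.6, 36.1, 39.7, 38.6 and 37.1 CPM in wild type and at 42.3, 28.5, 35.7 and 38 CPM in Rfx2-/-. The groups overlapped, with the highest and the lowest library both knockouts. The log2 fold change was -0.06 ± 0.13 (edgeR adjusted p = 0.809), and its 95% interval of -0.35 to 0.24 does not reach a 2-fold change in either direction. Its exons overlap those of Pnma1 on the other strand over 384 of 6456 bp, and its small change had the other sign with total count scaling and with the length trend removed. Relative to Dnal1, Dnali1 fell from a log2 ratio of 2.58 ± 0.18 to 0.99 ± 0.07, a difference of -1.59 (two-sided exact permutation p = 0.0159, adjusted p = 0.0159). This separation was also fixed beforehand, since Dnali1 did not overlap between genotypes and Dnal1 varied little. Its p-value adds no support of its own.

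Dnal4 encodes a light chain of the LC8 family. Dnal4 (ENSMUSG00000022420, chromosome 15, 79761453 to 79777849, - strand) was at 121, 111, 98.6, 100.1 and 121 CPM in wild type and at 56.5, 68.5, 50.5 and 68.8 CPM in Rfx2-/-. The groups were apart, and the knockout mean was 55.4% of the wild type mean. Dnal4 had a log2 fold change of -0.85 ± 0.14 (edgeR adjusted p = 0.002), which lay under the 2-fold limit in every alternative, between -0.93 and -0.72. Without Rfx2-/- replicate 3 it did not pass the p limit (edgeR adjusted p = 0.0102).

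Dynlrb2 encodes a light chain of the roadblock family that binds dynein intermediate chains and is shared between dyneins of the axoneme and of intracellular transport, while its paralog Dynlrb1 is found in cytoplasmic dynein of most cells. Dynlrb2 (ENSMUSG00000034467, chromosome 8, 116504974 to 116515915, + strand) was at 57.9, 49.9, 45, 53.9 and 55 CPM in wild type and at 26.3, 40.5, 25.3 and 29.1 CPM in Rfx2-/-. Replicate 2 was here the highest of the knockouts, yet still below the lowest wild type library. Dynlrb2 fell by 0.79 ± 0.16 on the log2 scale (edgeR adjusted p = 0.0075). With 556 bp of exons Dynlrb2 is the shortest of the 8 genes, and its log2 fold change was -0.98 with the trend on exon length removed and -0.96 without replicate 2, near but not past the 2-fold limit. The p limit was not passed with total counts (edgeR adjusted p = 0.0227) or when any single library other than Rfx2-/- replicate 2 was left out (edgeR adjusted p of 0.0132 to 0.0363).

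Dynlrb1 had 12.1 ± 0.653 CPM in the wild type libraries and 21.6 ± 6.98 CPM in the knockouts, with the highest value, 31.9 CPM, in replicate 2. Its log2 fold change was 0.83 ± 0.19 (edgeR adjusted p = 0.0142), which did not pass the p limit of 0.01. It passed without Rfx2-/- replicate 2 (log2 fold change 0.58, edgeR adjusted p = 0.00367), without replicate 1 (0.98, adjusted p = 0.006), with total counts, with the length trend removed and in DESeq2, in each case under 2-fold. The ratio of the 2 roadblock chains separated the genotypes. This was fixed beforehand, since neither gene overlapped between genotypes and the 2 changed in opposite directions. The p-value of the ratio therefore adds no support of its own. The log2 ratio of Dynlrb2 to Dynlrb1 was 2.11 ± 0.16 in wild type and 0.51 ± 0.17 in Rfx2-/-, a difference of -1.6, or 3.02-fold (two-sided exact permutation p = 0.0159, adjusted p = 0.0159). The value of replicate 2, 0.35, was the lowest of the 4 knockout ratios.

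**Figure D2:**
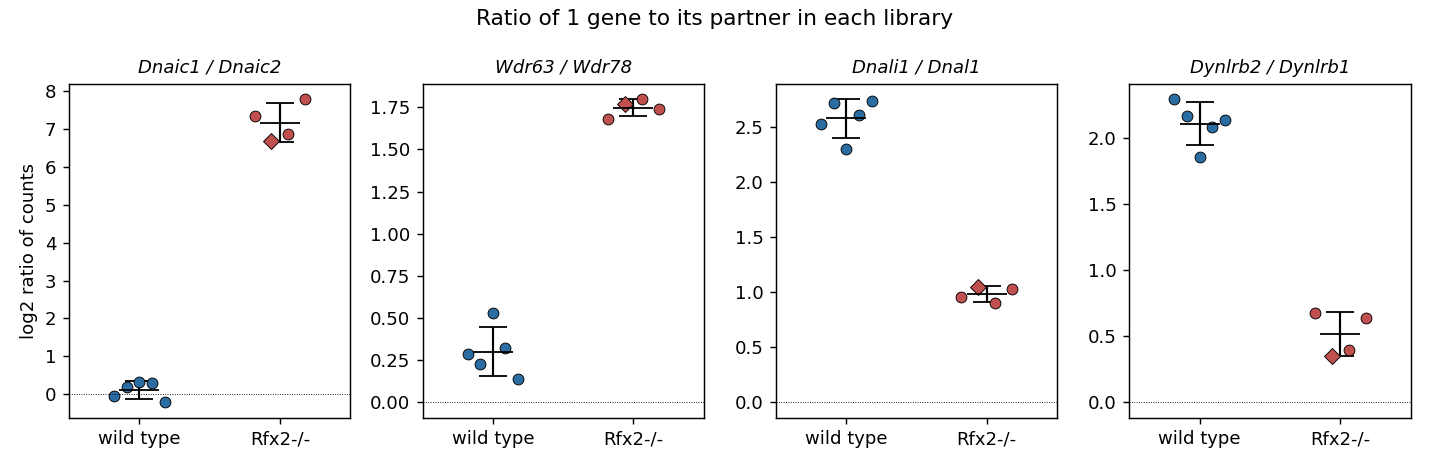
Log2 ratio of the counts of 2 genes within each library, after adding 0.5 to each count, in wild type (blue, n = 5) and Rfx2-/- (red, n = 4, replicate 2 as a diamond), with the mean ± SD in black and the dotted line at equal counts. In each of the 4 pairs the genotypes do not overlap, with differences of 7.07, 1.45, -1.59 and -1.6.

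Levels of different genes were compared as CPM per kb of merged exons. In wild type Dnali1 was highest at 106 ± 9.86 CPM per kb, followed by Dynlrb2 at 94.2 ± 8.98 (SD, n = 5). The ranges of mean ± SD of these neighbours overlapped. Next came Wdr63 at 53.6 ± 5.46, Dnal4 at 52.8 ± 5.21 and Dnaic1 at 47.6 ± 2.87 CPM per kb, whose ranges of mean ± SD overlapped each other. Dnaic2 at 35.8 ± 5.78 and Wdr78 at 32 ± 4.12 CPM per kb overlapped in the same way, and Dnal1 was lowest at 5.83 ± 0.232 CPM per kb. In Rfx2-/- the order was different. Dnaic1 was highest at 63 ± 22.5 CPM per kb (n = 4), with Dynlrb2 at 54.5 ± 12.6 and Wdr63 at 51.9 ± 17.9 within its SD, then Dnali1 at 33.5 ± 4.96 and Dnal4 at 29.2 ± 4.36 CPM per kb. Wdr78 was at 11.4 ± 4.18 and Dnal1 at 5.6 ± 0.893 CPM per kb, and Dnaic2 was last at 0.33 ± 0.0945 CPM per kb. The Rfx2-/- means and SDs include replicate 2, which was the lowest knockout library for Dnaic1 and Wdr63 and the highest for Dynlrb2. The places of these genes relative to each other depend on that library, and the order without it was not computed. The merged exons hold those of all coding isoforms, so genes with long alternative exons are placed too low on this scale.

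**Figure D3:**
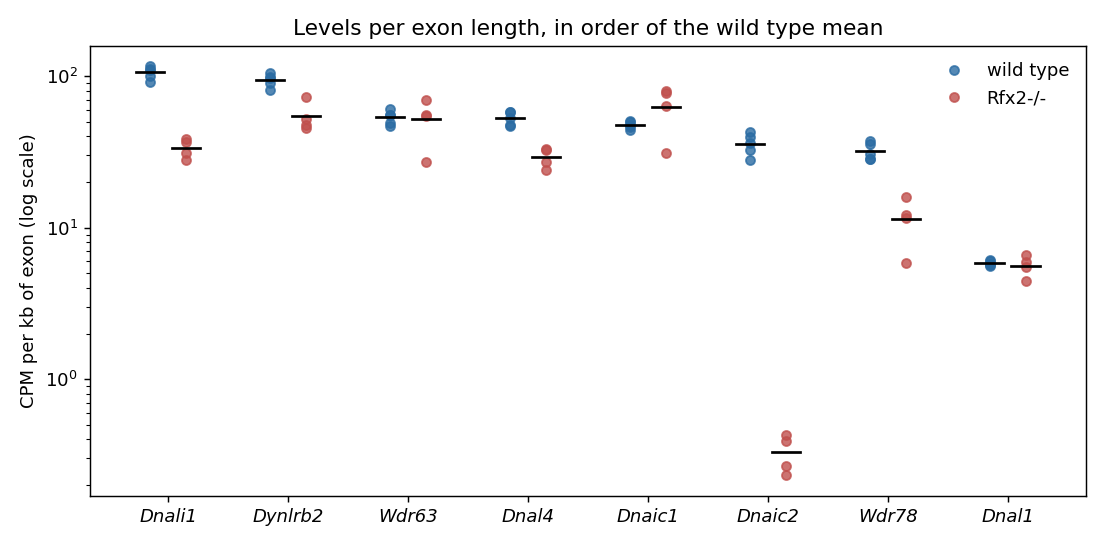
CPM per kb of exon on a log axis for the 8 genes in the order of their wild type means, with each wild type library (blue, n = 5) and Rfx2-/- library (red, n = 4) as a point and the group means as black lines. Dnaic2 moves from 35.8 to 0.33 CPM per kb, and Dnal1 is the lowest gene in wild type at 5.83 CPM per kb.

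The place of single libraries was similar across several of the genes. Wild type replicate 3 was the lowest wild type library for 6 of the 8 genes, all but Wdr63 and Dnal1, and Rfx2-/- replicate 2 was the lowest knockout for 6 of the 8, all but Dnal4 and Dynlrb2. Relative to the mean of the other 3 knockouts, replicate 2 was lower by log2 differences of -1.24 for Dnaic1, -1.16 for Wdr78 and -1.14 for Wdr63, and higher by 0.24 for Dnal4 and 0.59 for Dynlrb2. The median over all genes tested was 0.37 for exon lengths of 1 to 3 kb and -0.31 for 3 to 8 kb. All 8 genes thus lay below the median of their length class in replicate 2, among them Dnaic1, with 2538 bp of exons, and Wdr63, with 3176 bp. Dnal4 and Dynlrb2, although higher than in the other knockouts, were also below theirs, at 0.24 against 0.37 and 0.59 against 0.78. The part of RNA quality in this was not tested.

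**Figure D4:**
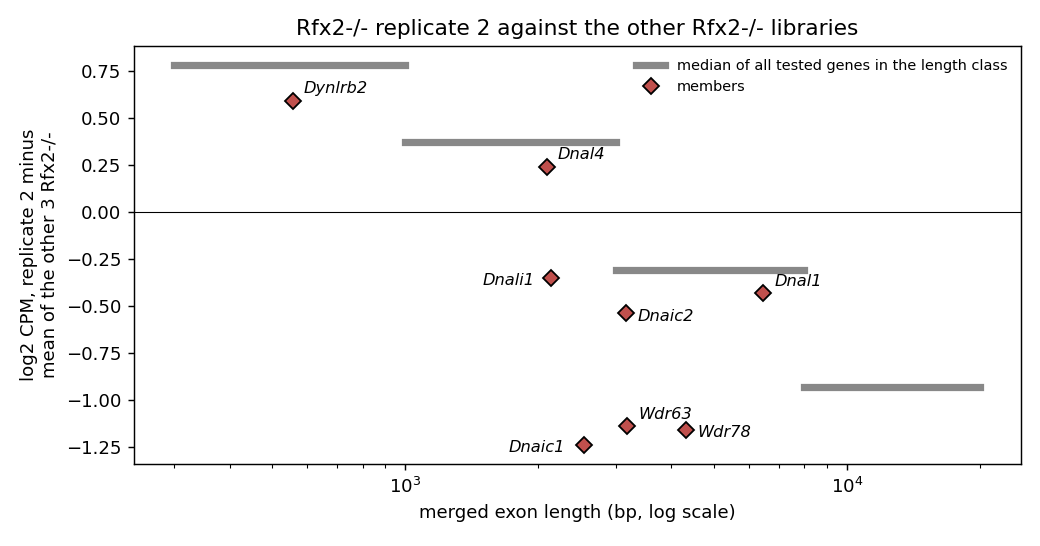
Log2 CPM of Rfx2-/- replicate 2 minus the mean of the other 3 knockout libraries, against merged exon length on a log axis, for the 8 genes (diamonds) and as the median of all genes tested in 4 length classes (grey lines; the outermost lines end at the edge of the plot range). Dynlrb2, the shortest gene, is at 0.59, and Dnaic1, Wdr78 and Wdr63 are at -1.24, -1.16 and -1.14.

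Markers of cell types in the testis were read beside these values. The study reports that Rfx2-/- spermatids arrest before they elongate. All 9 genes listed as markers of elongating spermatids had lower values in Rfx2-/-. Their log2 fold changes ran from -1.21 to -0.45, with a median of -0.77 and 0 calls. Among them were Tnp1 at -1.12 (edgeR adjusted p = 0.0416) and Tnp2 at -0.77 (edgeR adjusted p = 0.0927). The study states from its own RNA-Seq that neither of these 2 mRNAs was reduced. Beside 2143 lower genes of the 15613 tested, 9 of 9 of these markers had an unadjusted edgeR p under 0.05. Without Rfx2-/- replicate 2 there were 4 lower calls among the 9 markers, beside 4.01% of all genes. The summed level of the markers was 8094 to 17470 CPM in wild type, lowest in replicate 3, and 6345 to 9790 CPM in Rfx2-/-. These genes were thus still expressed where the study saw no elongating cells. The part of the loss of such cells in their fold changes was not tested. The log2 fold changes of Dnal4 and Dynlrb2 (-0.85 and -0.79) lie within the range of these markers, and those of Dnaic2, Wdr78 and Dnali1 lie below it. Without Rfx2-/- replicate 2 the markers ranged from -1.51 to -0.38, Wdr78 at -1.27 lay within this range, and Dnali1 at -1.58 and Dnaic2 at -6.60 lay below it. The 7 round spermatid markers had log2 fold changes from -0.14 to 0.77 and the 7 meiotic markers from -0.56 to 0.72, with 0 calls in either list. Markers of Sertoli, Leydig and peritubular cells gave 0 calls as well, with log2 fold changes between -0.25 and 0.92. The part of cell composition in the values of the 8 genes was not tested. Mcidas and Gmnc, which mark multiciliated epithelium such as that of the efferent ducts, were at most at 0.545 CPM in any library, and the other duct markers besides Crisp1 summed to at most 3.74 CPM with them.

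Genes whose log2 CPM followed that of a called gene most closely over the 9 libraries are given as a description, since the points fall into 2 genotype groups and share their scaling. For Dnaic2 they were Apobec4 (Pearson r = 0.9987), 1700001C02Rik (r = 0.9982) and 4930524N10Rik (r = 0.9981), with log2 fold changes of -8.36, -9.15 and -7.60. For Wdr78 they were Cep120 (r = 0.997) and Cep128 (r = 0.9956), which encode centriolar proteins, and Ttc25 (r = 0.9958), a docking gene of the outer arm. For Dnali1 they were the transcription regulator Prdm8 (r = 0.9974), the katanin-like gene Katnal1 (r = 0.996) and Ccdc40 (r = 0.9953), which is needed for the attachment of inner arms, with log2 fold changes of -2.26, -1.70 and -3.86.

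The other genes of the dynein pathway were read from 4 lists. Of 14 heavy chain genes tested, 2 were called lower and 0 higher, with a median log2 fold change of -0.65. The called genes were Dnah10 at -4.11 ± 0.41 (edgeR adjusted p = 3.21e-05) and Dnah6 at -2.55 ± 0.42 (edgeR adjusted p = 0.00159). Dnah6 was not called without Rfx2-/- replicate 4 (edgeR adjusted p = 0.0108) or against the 2-fold limit itself (edgeR glmTreat adjusted p = 0.0162). Dnah10 encodes a heavy chain of inner arm f, and Dnah6 a heavy chain of a single-headed inner arm. Dnah2, which encodes the other heavy chain of inner arm f, was at -0.72 ± 0.40 and was not called (edgeR adjusted p = 0.259). Of the 2 intermediate chains of inner arm f, Wdr78 was called lower and Wdr63, at -0.05, was not called. Dnah9 had the highest value at 0.70 ± 0.18 (edgeR adjusted p = 0.028), and without Rfx2-/- replicate 2 it was at 0.83 and passed the p limit (edgeR adjusted p = 0.00143), under 2-fold. Heavy chain genes have over 12 kb of exons, and in Rfx2-/- replicate 2 their summed level was 1066 CPM against 4015 to 6093 CPM in the other knockouts. Without this library the median was -0.31 and 2 genes were called lower, beside 4.01% of all genes.

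Of 17 genes tested for light, light intermediate and intermediate chains of cytoplasmic dyneins or chains shared with them, 0 were called in either direction. At an unadjusted edgeR p under 0.05 there were 3 lower and 3 higher, beside 2143 lower and 2166 higher of all 15613 genes tested. DESeq2 called 0 of the 17, and their median log2 fold change was 0.03. The lowest value was -0.54 ± 0.24 for Tctex1d1 and the highest 3.38 ± 1.40 for Dynlt1b (edgeR adjusted p = 0.148), which was at 15 to 65.3 CPM in 4 libraries of both genotypes and at most at 0.131 CPM in the other 5, and has near-identical copies in the genome.

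Of 7 genes of outer arm docking and attachment, 3 were called lower and 0 higher. They were Efcab1 at -3.21 ± 0.33, Armc4 at -2.48 ± 0.15 and Ttc25 at -1.13 ± 0.19 (edgeR adjusted p = 3.87e-05, 4.35e-07 and 0.00226). Mns1 had the highest value at 0.72 ± 0.15 (edgeR adjusted p = 0.008), under 2-fold, and the median of the list was -0.40. Ttc25 was not called without Rfx2-/- replicate 2 (-0.97) or replicate 3 (edgeR adjusted p = 0.013), with total counts or against the 2-fold limit itself. Mns1 did not pass the p limit when any of the 5 wild type libraries or Rfx2-/- replicate 4 was left out. Of 15 genes tested from the list for dynein arm assembly, 2 were called lower and 0 higher. The called genes were Daw1 at -1.39 ± 0.18 (edgeR adjusted p = 2.15e-04) and Zmynd10 at -1.38 ± 0.16 (edgeR adjusted p = 1.22e-04). The highest value was 0.54 ± 0.21 for Cfap298, and the median was -0.65. Without Rfx2-/- replicate 2 there were 4 lower calls in this list, beside 4.01% of all genes. Over the 4 lists together there were 7 lower and 0 higher calls among 53 genes. The intermediate and light chains gave 3 of 8 and 0 of 8, and all genes tested 3.68% and 0.826%.

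**Figure D5:**
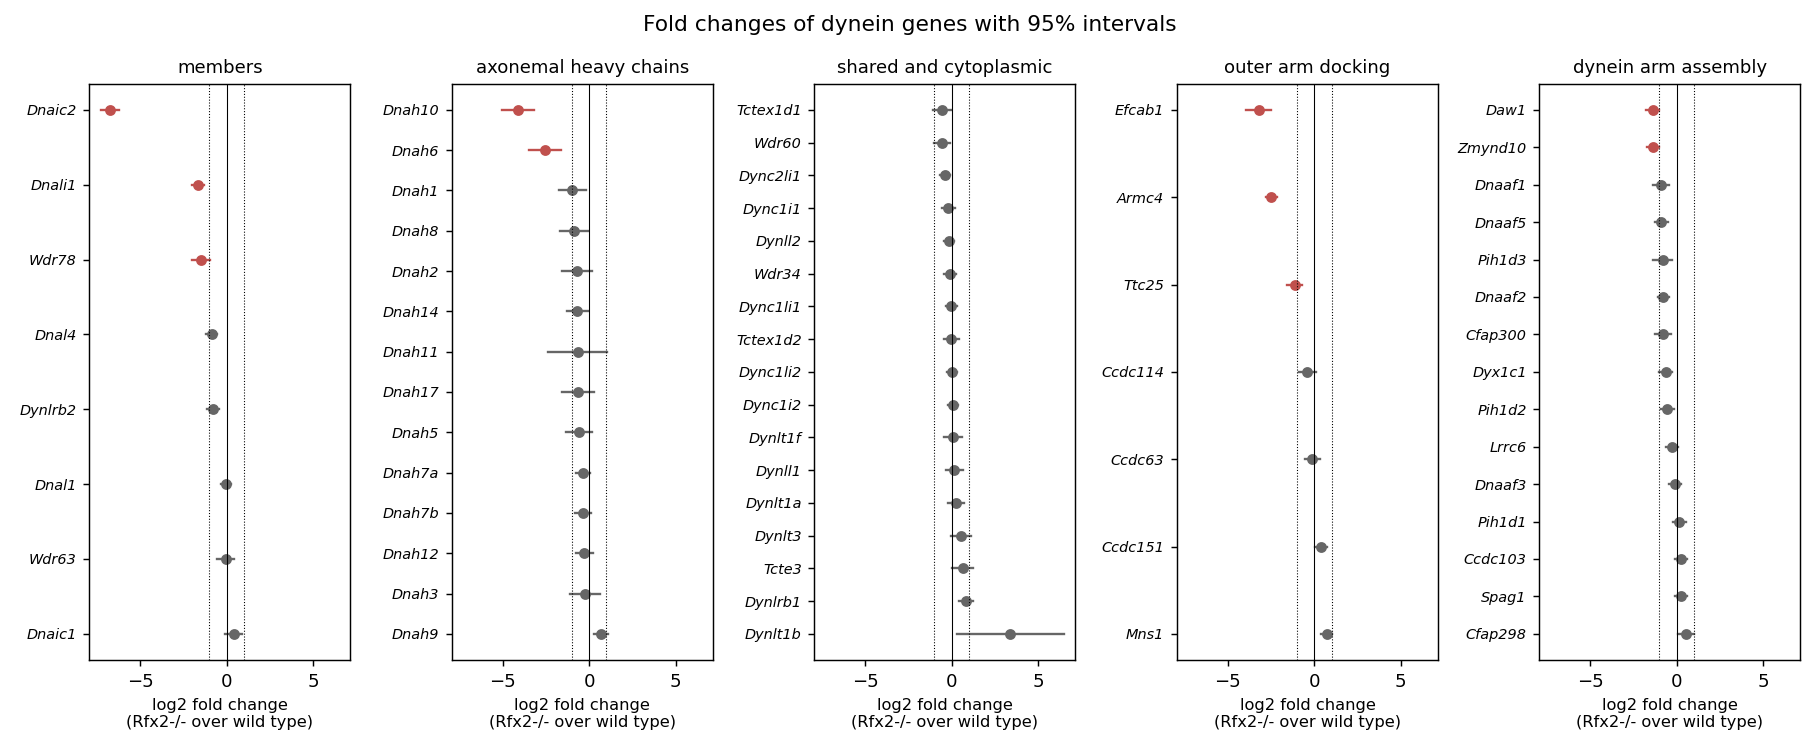
Log2 fold change (Rfx2-/- over wild type, 5 against 4 libraries) with its 95% interval for the 8 intermediate and light chain genes (members) and for the genes tested of the 4 other lists, with called genes in red, the solid line at no change and the dotted lines at 2-fold. Dnaic2 at -6.73 lies below every other gene shown, and Dnah10 at -4.11 is the lowest of the heavy chains.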

How the data were processed

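The authors prepared TruSeq libraries from column-purified total RNA, sequenced single reads, mapped them to GRCm38 and discarded reads with several positions. They counted reads over the merged exons of each gene's coding isoforms, leaving out reads over exons of different genes. The submitters' processing notes name STAR 2.4 and featureCounts 1.4.6. The use of strand is not given in the sources used here. The deposited values are raw counts for 23074 genes. Positions and names came from GENCODE M21 (96.6% of IDs matched), and promoter windows from RefSeq GRCm38.p6.

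Here the whole table was tested with edgeR 4.0.16 in R 4.3.3 (quasi-likelihood, robust, TMM, filterByExpr, genotype as the only factor, Benjamini-Hochberg adjustment). DESeq2 1.42.0, other scalings, thresholds, a length correction and leaving out each library were alternatives. Ratios of 2 genes were tested with exact permutations over 126 arrangements of the labels (scipy 1.17.1). On simulated counts (15613 genes, 5 wild type against 4 Rfx2-/-) the procedure recovered 97% of 100 genes changed 4-fold and 100% of 100 changed 8-fold, with 2 false calls. Libraries of a genotype differed by a chi-square of at least 4.52 per gene, so none was counted as a duplicate. Floors and intervals of counts cover counting error only. Of every other dynein list, all called genes and the highest and lowest gene are named. Dynlrb1, Dnah2, Rfx2 and, for each called gene among the 8, the 3 genes with the highest Pearson r are named too. The members and lists were chosen with earlier results of these data known. Replicates were numbered in order of deposition and pair no animals.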

Additional observations from a re-analysis of the deposited data

How the results depend on the processing

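The 3 calls among the 8 genes, Dnaic2, Wdr78 and Dnali1, were made with DESeq2, with RLE or total count scaling, with no filter on low counts, with the exon length trend removed and without each library in turn (3 lower and 0 higher each time). Against the 2-fold limit itself 2 were called, without Wdr78. At an adjusted p of 0.05 with no fold limit 5 of the 8 genes were lower, and 12 of the other dynein genes were lower and 3 higher, in place of 7 and 0, beside 7.31% lower and 3.48% higher of all genes. Tested against the 2-fold limit 3 of the other dynein genes were lower, and with the length trend removed 1, Dnah9, was higher. Without single libraries 6 to 8 of them were lower. Without Rfx2-/- replicate 2 the share of all genes called lower was 4.01%. The shares of all genes called against the 2-fold limit and in the remaining alternatives are not given here.

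Wdr63 and Dnal1, which passed no test, changed sign. The log2 fold change of Wdr63 was 0.081 with total counts and -0.194 to 0.168 without single libraries. That of Dnal1 was 0.07 with total counts, 0.079 with the length trend removed and -0.113 to 0.042 without single libraries. Their causes were not tested. The differences of the 4 gene ratios kept their direction and an adjusted p at or under 0.0357 without each library and with 1 added to each count. Except for Wdr63 to Wdr78, the separation of these ratios was fixed beforehand by the values of the single genes. The range of knockout levels, set mostly by replicate 2, limits the precision for Dnaic1 and Wdr63. No paired analysis was possible because the labels name no litters and give no replicate numbers shared between genotypes. By the study's methods, littermates of matching age were used where this could be done. Some libraries may thus come from the same litter, which was not accounted for.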
